A study of Mus musculus with 14 samples.

Results

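Anxa8, Aqp4, Chpt1, Fabp2 and Lactb2 are 5 genes chosen by their measured signals, since the difference between dwarf and wild type livers was more positive at 22 than at 6 months. They have 7 probe sets among the 12488 of the array, and all 7 were among the 7227 tested. The choice used all 4 groups, so each genotype difference and each age difference within a genotype is given for them as a description without a p value. The working name of the set, genes higher in old dwarf than in old wild type liver, held for Anxa8, Aqp4 and Chpt1. It did not hold for Fabp2 and Lactb2, which were far lower in young dwarf than in young wild type livers. Their difference was smaller at 22 months, where the signals were higher in dwarf and lower in wild type mice than at 6 months.

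Liver RNA of 14 mice was measured on Affymetrix arrays, 1 mouse per array. The groups were Snell dwarf mice with a mutation of Pit-1 at 22 months (animals 3, 4 and 8), wild type controls at 22 months (1, 2 and 24), Snell dwarf mice at 6 months (83, 85, 87 and 89) and wild type controls at 6 months (82, 84, 86 and 88). Pit-1 is a transcription factor of the pituitary, without which the cells secreting growth hormone, prolactin and thyrotropin do not form, and growth hormone sets the expression of many liver genes. The dwarf phenotype is long lived. The labels give no sex, strain, diet or batch.

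The 5 genes belong to different families. Anxa8 encodes annexin A8, one of the proteins that bind acidic phospholipid membranes when calcium is present. Aqp4 encodes a water channel best known from astrocytes, stomach and muscle. Chpt1 encodes choline phosphotransferase, which joins CDP-choline to diacylglycerol in the last step of phosphatidylcholine synthesis. Fabp2 encodes the intestinal fatty acid binding protein, a small cytosolic carrier best known from enterocytes. Lactb2 encodes a protein of the metallo-beta-lactamase fold, whose human counterpart is a mitochondrial endoribonuclease. In a piece of whole liver, fewer cells of a type and less RNA per cell cannot be told apart.

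Some arrays stood apart. The signal of the 18S ribosomal control was 418.4 to 1048.6 in dwarf and 339.8 to 4852.8 in wild type mice of 22 months, against 60.8 to 217.4 in dwarf and 74.5 to 587.6 in wild type mice of 6 months. The 587.6 belonged to animal 88, and without it the 6-month wild type arrays reached 181.8. The ratio of 3' to 5' beta-actin signal, which depends on RNA quality and labelling, averaged 1.46 ± 0.18 in old dwarf and 1.61 ± 0.118 in old wild type mice (SD, n = 3 each). In young mice it averaged 2.51 ± 0.209 in dwarf and 1.87 ± 0.602 in wild type livers (SD, n = 4 each). The young dwarf arrays also had a higher median signal, 203.6 ± 14.3, against 177.4 ± 3.93 on young wild type arrays (SD, n = 4 each), and a higher 25th percentile, 65.3 ± 7.76 against 52.6 ± 3.01. Scaling to the median in place of the trimmed mean lowered the 6-month differences of Aqp4, Chpt1, Fabp2 and the brighter Lactb2 probe set by 0.20 and that of Anxa8 by 0.10 (log2), and it changed the 6-month calls over all tested probe sets to 188 higher and 847 lower, against 460 higher and 502 lower as reported. The summed signal of 4 of 7 hepatocyte markers was 86791.6 to 103742 in dwarf and 88074.3 to 110083 in wild type mice of 22 months, and 109059 to 149752 in dwarf and 88987.9 to 106044 in wild type mice of 6 months. It was thus higher in young dwarf than in young wild type livers without overlap, where Fabp2 and Lactb2 were lower, and its part in these results was not tested. Values are MAS5 signals, and the number of arrays limits the precision.

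The promoters of 3 of the genes are shown. Anxa8 and Chpt1 followed each other over the arrays, while Fabp2 followed another course. No promoter of Lactb2 was available, and that of Aqp4, which also followed Chpt1, was left out. Each run holds the 250 bases before the RefSeq start in build GRCm38.p6, in the direction of the gene, and capitals mark the motifs found.
Anxa8, chr14:34085729-34085978, plus strand: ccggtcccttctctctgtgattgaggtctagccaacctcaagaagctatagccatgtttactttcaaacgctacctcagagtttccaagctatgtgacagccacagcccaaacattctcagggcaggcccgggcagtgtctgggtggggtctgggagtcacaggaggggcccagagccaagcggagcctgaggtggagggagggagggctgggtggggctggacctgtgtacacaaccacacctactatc
Chpt1, chr10:88503971-88504220, minus strand: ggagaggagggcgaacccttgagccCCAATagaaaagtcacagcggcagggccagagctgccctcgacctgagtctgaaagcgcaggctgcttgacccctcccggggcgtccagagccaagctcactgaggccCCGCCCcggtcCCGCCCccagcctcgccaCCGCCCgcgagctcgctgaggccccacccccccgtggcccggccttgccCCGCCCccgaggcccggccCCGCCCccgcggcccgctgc
Fabp2, chr3:122894822-122895071, plus strand: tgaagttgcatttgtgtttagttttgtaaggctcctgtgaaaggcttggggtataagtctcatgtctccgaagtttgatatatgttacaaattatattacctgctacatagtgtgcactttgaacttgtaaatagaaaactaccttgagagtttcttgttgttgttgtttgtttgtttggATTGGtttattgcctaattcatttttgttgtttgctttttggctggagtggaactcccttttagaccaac
On both strands, 5 motifs were searched: the STAT5 type palindrome TTCNNNGAA, the nuclear receptor half-site AGGTCA, the GC box GGGCGG, the TATA box TATAAA and the CCAAT box CCAAT. The Chpt1 promoter held 5 matches of the GC box and 1 CCAAT box. At least 1 GC box occurs in 32.7% of the 32851 promoters of the table, and at least 1 CCAAT box in 33.8%. The share of promoters with 5 GC boxes was not counted. The Fabp2 promoter held 1 CCAAT box, on the opposite strand. None of the 3 windows held the letters of the STAT5 type palindrome (7.02% of promoters), the half-site (14% of promoters) or the TATA box (12.4% of promoters), and the Anxa8 window held none of the 5. The windows also differed in base composition, with a GC content of 75.6% for Chpt1, 58% for Anxa8 and 35.6% for Fabp2, against a median of 52.4% over all promoters. The share of promoters with a lower GC content was 96.4% for Chpt1, 66.8% for Anxa8 and 5.41% for Fabp2.

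Anxa8 had signals of 624, 540 and 535.4 in dwarf and 60, 81.1 and 86.1 in wild type mice of 22 months. At 6 months it had 34.1, 158.5, 35.8 and 53.9 in dwarf and 158.1, 175.5, 103.9 and 111.7 in wild type mice. The 3 old dwarf livers thus stood above all 11 other livers, whose values lay between 34.1 and 175.5. The dwarf minus wild type difference was 2.92 ± 0.42 (log2, SE from limma) at 22 months, which is 7.55-fold higher, and -0.90 ± 0.37 at 6 months. Of the young dwarf arrays, 3 of 4 lay at or below 54.9, the floor to which low values were set, so the difference at 6 months is limited by that floor. Animal 85 made the exception with 158.5. By mean signal the old dwarf livers came first and the young wild type livers next, while old wild type and young dwarf livers overlapped near the floor and have no order. Anxa8 passed the filter on low values only through the 3 old dwarf arrays.

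Aqp4 was read by 2 probe sets. The brighter one had signals of 303.9, 232.9 and 635.2 in dwarf and 84.4, 65.9 and 56.8 in wild type mice of 22 months. The young livers had 104.2, 270.8, 186 and 161.1 in dwarf and 314.8, 392.7, 487.9 and 216.8 in wild type mice. The old wild type livers were the low ones here: all 3 lay below every other array. The difference between dwarf and wild type was 2.38 ± 0.41 at 22 months, 5.22-fold higher in dwarf mice, and -0.99 ± 0.36 at 6 months. Since the old wild type signals lay near the floor of 54.9, the size of the difference at 22 months is uncertain. Old dwarf and young wild type livers, the highest groups by mean, overlapped, as did young wild type and young dwarf livers. The dimmer probe set gave 218.6 ± 47.0 in dwarf and 70.9 ± 52.9 in wild type mice of 22 months (SD, n = 3 each), and 158.8 ± 60.4 in dwarf and 218.0 ± 60.1 in wild type mice of 6 months (n = 4 each). Its suffix marks sets that may also detect related transcripts, and 1 of its old wild type arrays (animal 2, at 10) lay below the floor. Both probe sets had old dwarf above old wild type arrays without overlap, and their log2 signals correlated at r = 0.864 over the 14 arrays.

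Chpt1 had signals of 3953.2, 2896.7 and 4462.8 in dwarf and 1311.9, 1771.8 and 1345.2 in wild type mice of 22 months. At 6 months it had 1557.6, 1390.5, 1737 and 2275.9 in dwarf and 2269.9, 2120.9, 2402.9 and 2500.1 in wild type mice. Every old dwarf liver lay above every liver of the other groups. The genotype difference was 1.34 ± 0.20 at 22 months, 2.54-fold higher in dwarf mice, and -0.44 ± 0.17 at 6 months, where 1 dwarf array (animal 89) reached the wild type range. By mean signal the order was old dwarf, young wild type, young dwarf and old wild type livers, and the last 2 groups overlapped.

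Fabp2 had signals of 444.4, 488 and 837.6 in dwarf and 1526.1, 1248.1 and 517.7 in wild type mice of 22 months. The signals at 6 months were 106, 170.1, 87.2 and 164.9 in dwarf and 2183.9, 1953.5, 1863 and 1749.2 in wild type mice. The groups did not overlap at 6 months and overlapped at 22 months, where wild type animal 24 lay inside the dwarf range. The difference was -0.81 ± 0.36 at 22 months and -3.93 ± 0.31 at 6 months, so dwarf mice were 1.76-fold lower at 22 and 15.2-fold lower at 6 months. Leaving out 1 array gave differences at 22 months of -1.29 (without wild type animal 24) to -0.51 (without wild type animal 1). By mean signal the order was young wild type, old wild type, old dwarf and young dwarf livers.

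Lactb2 was read by 2 probe sets. The brighter one had signals of 1254.4, 1475.5 and 1405 in dwarf and 1567.1, 1431.5 and 1326.2 in wild type mice of 22 months. At 6 months it had 1213.6, 987.3, 953.2 and 1040.5 in dwarf and 2270.1, 2685.4, 2810.4 and 2599.1 in wild type mice. The old groups overlapped, and they lay between young dwarf and young wild type livers. The genotype difference was -0.06 ± 0.14 at 22 months and -1.31 ± 0.12 at 6 months, 2.47-fold lower in young dwarf mice. The dimmer probe set was more variable, with 383.1 ± 193 in dwarf and 256.7 ± 17.0 in wild type mice of 22 months (SD, n = 3 each), and 113.5 ± 66.1 in dwarf and 363.8 ± 295 in wild type mice of 6 months (n = 4 each). Of its young wild type arrays, animal 88 had 803.4 and the others 166.1 to 250.4. The 2 Lactb2 probe sets correlated at r = 0.515 over the 14 arrays, less closely than those of Aqp4.

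**Figure D1:**
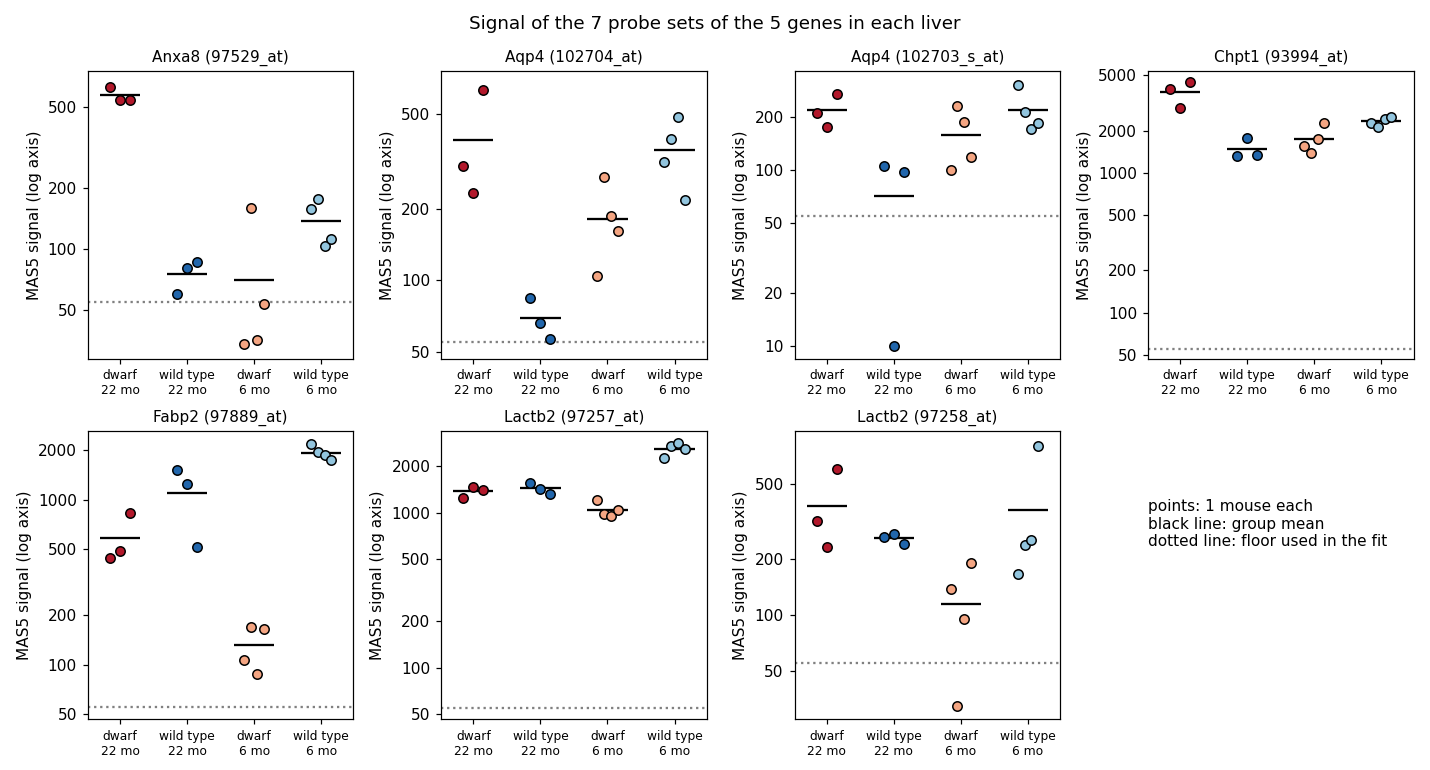
MAS5 signal (log axis) of each of the 7 probe sets in dwarf and wild type livers at 22 and 6 months, with 1 point per mouse, a black line at the group mean and a dotted line at the floor of 54.9. Anxa8 and Chpt1 are highest in the 3 old dwarf livers, the brighter Aqp4 probe set is lowest in the 3 old wild type livers, and Fabp2 and the brighter Lactb2 probe set are lowest in the young dwarf and highest in the young wild type livers.

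The growth of the genotype difference, which is the difference at 22 months less that at 6 months, chose the genes and is described here without a test. It was 3.82 ± 0.56 for Anxa8, 3.37 ± 0.55 for Aqp4, 3.11 ± 0.47 for Fabp2, 1.78 ± 0.26 for Chpt1 and 1.24 ± 0.19 for Lactb2 (log2 ± SE). Over all tested probe sets its median was -0.07. The value of Anxa8 is limited by the floor, which holds 3 of its 4 young dwarf arrays. It was 4.15 with the floor at the 10th percentile, 3.33 with a pseudocount of 32 and no floor, and 4.20 without animal 85. Larger values were found for 2 of the 7227 probe sets in the case of Anxa8, 4 for Aqp4, 6 for Fabp2, 49 for Chpt1 and 141 for Lactb2. The dimmer probe sets gave 1.88 ± 0.51 for Aqp4 and 1.93 ± 0.70 for Lactb2. With the floor at the 10th percentile the dimmer Aqp4 probe set gave 2.36. The choice stated no threshold, and the 5 genes are neither the 5 highest nor an unbroken run of the ranking.

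**Figure D2:**
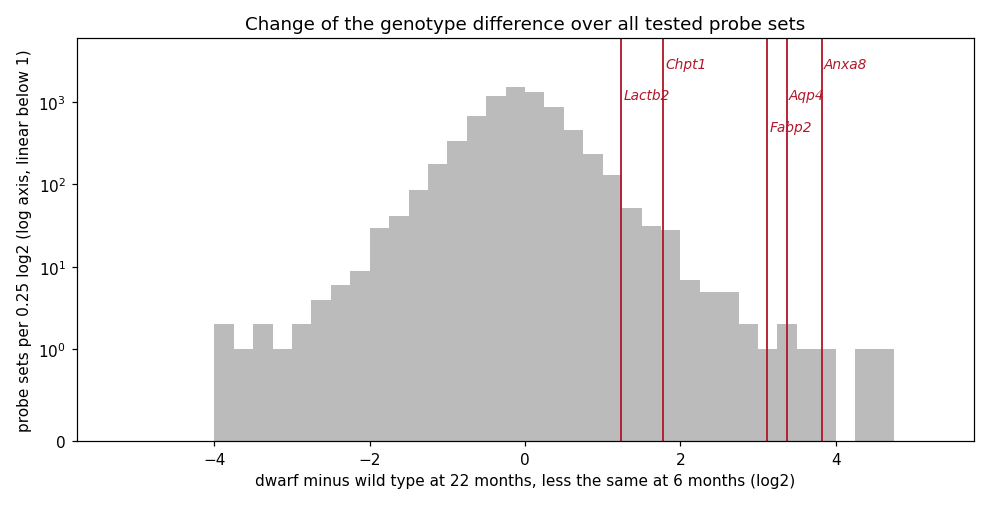
Number of tested probe sets (log axis, linear below 1) by the dwarf minus wild type difference at 22 months less that at 6 months (log2, bins of 0.25). Red lines mark the 5 genes, from 1.24 for Lactb2 to 3.82 for Anxa8, all right of the median of -0.07.

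The growth is also the age change in dwarf mice less that in wild type mice, and the genes differed in which of these was larger. Anxa8 was 7.90-fold higher at 22 than at 6 months in dwarf mice and 1.79-fold lower in wild type mice, so that the dwarf change made up 78.0% of the growth. This fold and share are set by the floor and by animal 85, since the other 3 young dwarf arrays lay at or below 54.9. For Fabp2 the changes were 4.46-fold higher in dwarf and 1.94-fold lower in wild type mice (69.3% from dwarf), and for Chpt1 2.17-fold higher and 1.59-fold lower (62.7% from dwarf). Aqp4 and Lactb2 had the reverse weighting. Aqp4 was 2.09-fold higher with age in dwarf and 4.97-fold lower in wild type mice, and the dwarf change made up 31.4%. Its old wild type signals of 56.8 to 84.4 lay near the floor, so the size of this fall and the share are uncertain. Lactb2 was 1.32-fold higher in dwarf and 1.80-fold lower in wild type mice (32% from dwarf), but its dimmer probe set placed 88.8% in dwarf mice. That share depends on 2 young arrays, wild type animal 88 at 803.4 and dwarf animal 85, which lay below the floor. The wild type change of the dimmer set was -0.22 ± 0.49. Its growth was 1.45 without animal 88 and 1.36 with the 3' to 5' ratios as a covariate.

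Array by array, every 22-month wild type value lay below every 6-month wild type value for all 5 genes (with the brighter probe set of Aqp4 and Lactb2), a pattern that 7.78% of tested probe sets showed. Every 22-month dwarf value lay above every 6-month dwarf value for 4 of the 5, against 12.6% of tested probe sets. Aqp4 was the exception, with 1 young dwarf array (animal 85, 270.8) above the lowest old one. The same 4 genes combined both patterns, as did 0.567% of tested probe sets. Every old dwarf array lay above every old wild type array for Anxa8, Aqp4 and Chpt1 (10.3% of tested probe sets), and every young dwarf array lay below every young wild type array for Fabp2 and Lactb2 (7.8%). These patterns follow from the choice of the genes, so nothing is read from their number.

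**Figure D3:**
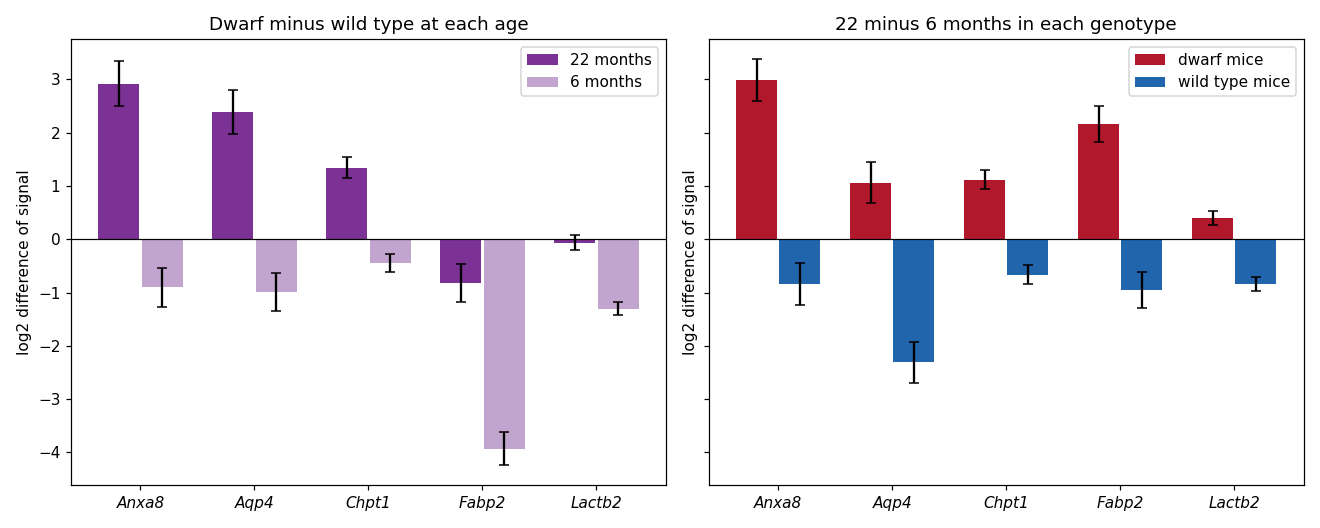
Log2 differences of signal (bars from 0, error bars ± SE from limma) for the 5 genes, as dwarf minus wild type at 22 and 6 months on the left and as 22 minus 6 months in dwarf and wild type mice on the right. At 22 months the bars run from -0.81 for Fabp2 to 2.92 for Anxa8, at 6 months all 5 are below 0, and with age all 5 are above 0 in dwarf and below 0 in wild type mice.

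The growth kept its sign under each of the alternatives that could be computed, 24 for 4 of the genes and 23 for Aqp4. Each alternative reuses the arrays from which the growth chose the genes, so nothing is read from the kept sign. Since animal 88, the 18S signal and the 3' to 5' ratios stood apart, the value of the growth was recomputed with regard to each. Without animal 88 it was 3.91 for Anxa8, 3.59 for Aqp4, 3.16 for Fabp2, 1.75 for Chpt1 and 1.24 for Lactb2. With the 18S signal as a covariate it was 3.81 for Anxa8, 3.35 for Aqp4, 3.13 for Fabp2, 1.81 for Chpt1 and 1.25 for Lactb2. With the averaged 3' to 5' ratios of actin and Gapdh as a covariate it was 3.75 for Anxa8, 3.56 for Aqp4, 3.16 for Fabp2, 1.70 for Chpt1 and 1.34 for Lactb2.

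One contrast of the 4 groups, the change from 6 to 22 months averaged over both genotypes, has coefficients uncorrelated with those of the growth at these group sizes. It asks whether a gene was higher or lower in old livers at large. Of the 5 genes 1 passed (limma, adjusted p under 0.05 over all tested probe sets), against 18.7% of tested probe sets, so the share of the 5 was near the background. This was Anxa8, with 1.07 ± 0.28, and its call is not read as a result. The gene exceeded the filter on the 3 old dwarf arrays and on no other, and its average joins 2.98 in dwarf with -0.84 in wild type mice. The averages of the other genes did not pass: 0.60 ± 0.24 for Fabp2 (limma adjusted p = 0.0858), -0.22 ± 0.09 for Lactb2 (limma adjusted p = 0.106), -0.63 ± 0.27 for Aqp4 (limma adjusted p = 0.118) and 0.23 ± 0.13 for Chpt1 (limma adjusted p = 0.233). The Aqp4 average passed without dwarf animal 8 (limma adjusted p = 0.048) and with array weights (limma adjusted p = 0.0257), and that of Fabp2 passed without wild type animal 24 (limma adjusted p = 0.0137).

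Over the 14 arrays, and with the brighter probe sets of Aqp4 and Lactb2, the genes formed a trio and a pair. Log2 signals of Anxa8, Aqp4 and Chpt1 correlated at r = 0.781 for Anxa8 and Chpt1, 0.707 for Aqp4 and Chpt1 and 0.614 for Anxa8 and Aqp4. Fabp2 and Lactb2 correlated at 0.866. Between the trio and the pair r ran from 0.110 for Anxa8 and Lactb2 to 0.369 for Aqp4 and Lactb2. The dimmer Lactb2 probe set parted less clearly, with r = 0.612 with Fabp2, 0.583 with Chpt1 and 0.330 with Anxa8. It had 0.149 with the brighter and -0.011 with the dimmer Aqp4 probe set. The dimmer Aqp4 probe set had 0.581 with Anxa8, 0.524 with Chpt1, 0.115 with Fabp2 and 0.241 with the brighter Lactb2 probe set. These values describe 14 arrays that share 4 groups, and the choice of the genes bears on them.

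The genes whose log2 signal followed a member most closely were looked up among 5468 other tested genes. For Fabp2 the closest were Elovl5, a fatty acid elongase (r = 0.987), Me1, malic enzyme (r = 0.966), and Hsd17b12, a reductase of fatty acid elongation (r = 0.963). Elovl5 had mean signals of 11532 ± 2351 in dwarf and 15747 ± 4867 in wild type mice of 22 months (SD, n = 3 each), and 5506 ± 1345 in dwarf and 21217 ± 423 in wild type mice of 6 months (n = 4 each). Wild type animal 24 was the low one of its group for both genes, with 517.7 for Fabp2 and 10144.2 for Elovl5. With the group means taken out, Fabp2 and Elovl5 correlated at r = 0.898. The closest genes of each member were picked by r over these same arrays. Their r with the group means taken out is therefore a description and not a separate check. For Lactb2 the closest were Abcd3, a peroxisomal fatty acid transporter (r = 0.940), Cd59b, a complement inhibitor (r = 0.928), and C8g, a complement component (r = 0.902). With the group means taken out, Abcd3 and Lactb2 had r = 0.02, and 14 arrays are too few to exclude a shared course within groups.

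For Chpt1 the closest genes were Acot1, an acyl-CoA thioesterase (r = 0.925), Ehhadh, an enzyme of peroxisomal beta-oxidation (r = 0.895), and the cytochrome P450 Cyp3a25 (r = 0.856). Acot1 had 650.6 ± 98.8 in dwarf and 201.3 ± 47.9 in wild type mice of 22 months (SD, n = 3 each), and 304.5 ± 28.4 in dwarf and 441.9 ± 107 in wild type mice of 6 months (n = 4 each). With the group means taken out, Chpt1 and Acot1 correlated at r = 0.677. For Anxa8 the closest were Sar1b, a GTPase of secretory vesicle formation (r = 0.889), 4931406C07Rik (r = 0.843) and the flavin monooxygenase Fmo5 (r = 0.842). With the group means taken out, these 3 had r of 0.17 to 0.31 with Anxa8. For Aqp4 they were Tmem123 (r = 0.848), the syntaxin Stx2 (r = 0.830) and the autophagy enzyme Atg7 (r = 0.811). Tmem123 and Aqp4 correlated at r = 0.743 with the group means taken out. The probe sets of Sar1b and 4931406C07Rik carry suffixes of sets that may also detect related transcripts.

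**Figure D4:**
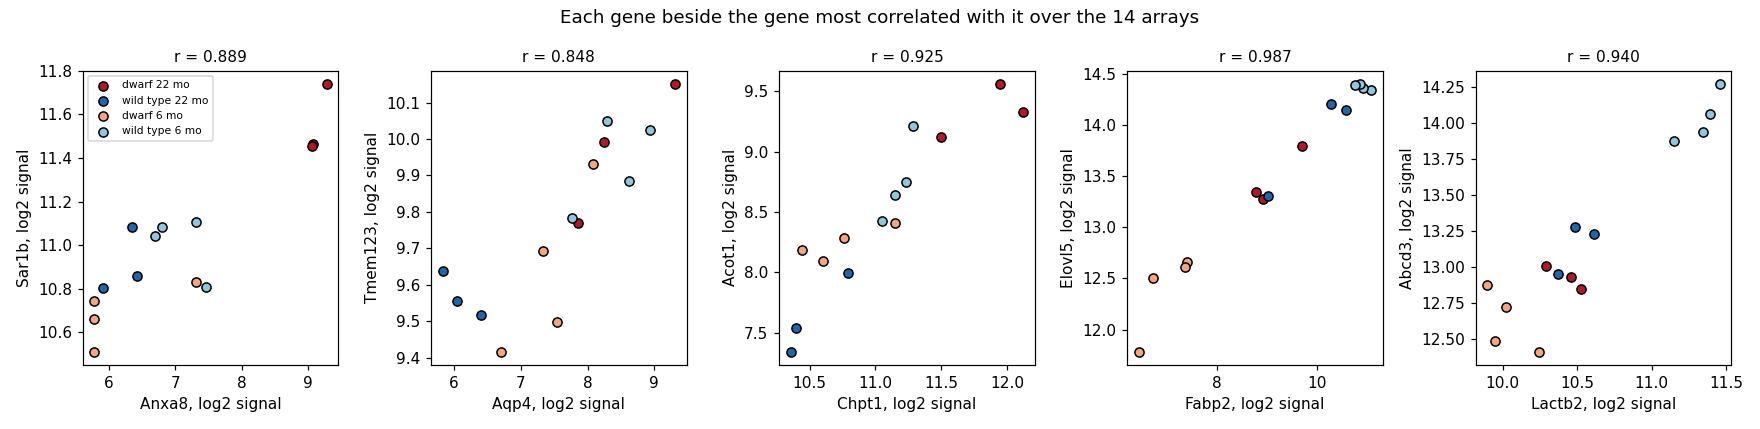
Log2 signal of each of the 5 genes (x axis) and of the gene most correlated with it (y axis) on the 14 arrays, coloured by group, with low values set to the floor. The young dwarf livers are at the bottom left and the young wild type livers at the top right for Fabp2 with Elovl5 (r = 0.987), whereas the old dwarf livers are at the top right for Anxa8 with Sar1b and for Chpt1 with Acot1.

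Relatives of the 5 genes were taken from lists of 5 families or pathways, without the members themselves. Of 66 listed genes 31 were tested. For the growth of the genotype difference 1 of the 31 passed, against 2.19% of tested probe sets. This was the aquaporin Aqp8, which conducts water and ammonia and is a main aquaporin of hepatocytes. It had 2634 ± 493 in dwarf and 2994 ± 1198 in wild type mice of 22 months (SD, n = 3 each), and 825 ± 275 in dwarf and 3574 ± 113 in wild type mice of 6 months (n = 4 each). Its growth was 2.06 ± 0.38 (limma adjusted p = 0.0126), and its difference at 6 months was -2.18 ± 0.25 (limma adjusted p = 2.31e-05). The call of the growth was lost without a filter on low values (limma adjusted p = 0.0667). Its levels ran like those of Fabp2 and Lactb2 and unlike those of Aqp4, since young dwarf livers were the low group. The growth was -0.07 for Aqp1, -0.41 for Aqp2 and 0.09 for Aqp9, and none of these passed. Of the 30 relatives that did not pass for the growth, 5 had an unadjusted p under 0.05 in limma.

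Of 6 tested annexins none passed in limma for the growth, at either age or for age averaged over genotypes (median growth 0.05, all tested probe sets -0.07). At an unadjusted p under 0.05 there were 2 for age averaged over genotypes, 1 at 6 months and 0 in the other comparisons. The nearest was Anxa5 with age averaged over genotypes, at 0.32 ± 0.12 (limma adjusted p = 0.0712). Of 4 tested fatty acid and retinoid binding proteins none passed for the growth (median 0.03). Fabp1, the abundant fatty acid binding protein of liver, was lower in dwarf mice at 6 months by -0.79 ± 0.14 (limma adjusted p = 0.00147) and had -0.21 ± 0.16 at 22 months (limma adjusted p = 0.722). Fabp5, the epidermal form, was lower in dwarf mice at 22 months by -2.42 ± 0.57 (limma adjusted p = 0.0266), with 247.9 ± 165 in dwarf and 1115 ± 353 in wild type mice (SD, n = 3 each). It was the single gene of the 31 to pass at 22 months, where 2.93% of tested probe sets passed. Its call was lost without a filter on low values (limma adjusted p = 0.147) and without an intensity trend (limma adjusted p = 0.0564). The call was also lost on leaving out any 1 of 5 of the 6 old arrays, as without dwarf animal 4 (-1.74, limma adjusted p = 0.137).

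Of 10 tested genes of phosphatidylcholine and phosphatidylethanolamine synthesis none passed for the growth (median 0.06). Pcyt1a, which makes the CDP-choline that Chpt1 uses, had a growth of 0.45 ± 0.23 (limma adjusted p = 0.404), and Pemt, the methylation route to phosphatidylcholine, had 0.12 ± 0.26 (limma adjusted p = 0.882). The phosphatidate phosphatases Lpin1 and Lpin2, which make diacylglycerol, were higher in dwarf mice at 6 months, by 1.05 ± 0.33 (limma adjusted p = 0.0463) and 1.00 ± 0.28 (limma adjusted p = 0.0251). The Lpin1 call was lost in 17 of 24 alternatives, with values of 0.69 to 1.15 in these: median scaling, no filter, no intensity trend, array weights, either covariate, and 11 of the 14 arrays left out singly. The Lpin2 call was lost in 5, with values of 0.71 to 1.00: median scaling, no filter, and without wild type animal 82, dwarf animal 87 or dwarf animal 89. Choline kinase Chka was higher with age averaged over genotypes by 1.19 ± 0.27 (limma adjusted p = 0.0091), and the call was lost with the 18S covariate (0.70, limma adjusted p = 0.434) and with the 3' to 5' covariate (1.19, limma adjusted p = 0.126). In all, 2 of the 31 genes passed for age averaged over genotypes, the other being Aqp8, which was higher by 0.69 ± 0.19 (limma adjusted p = 0.0196) and lost its call with either covariate, without a filter, or without wild type animal 2 or dwarf animal 8. Of tested probe sets 18.7% passed this comparison.

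Of 7 tested genes of the metallo-beta-lactamase fold none passed for the growth (median 0.43). Pnkd came nearest with 1.28 ± 0.36 (limma adjusted p = 0.0876), about the size of the growth of Lactb2. At 6 months Hagh, the glyoxalase that hydrolyses lactoylglutathione, was lower in dwarf mice by -0.54 ± 0.13 (limma adjusted p = 0.0121), and Dclre1a, a nuclease of crosslink repair, was higher by 2.85 ± 0.59 (limma adjusted p = 0.00477). At 22 months Hagh had -0.03 ± 0.15 (limma adjusted p = 0.986) and Dclre1a 2.05 ± 0.69 (limma adjusted p = 0.15). The Dclre1a differences are limited by the floor, which held 1 wild type array at each age. Over the 5 lists 6 of 31 genes passed at 6 months, against 13.3% of tested probe sets.

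**Figure D5:**
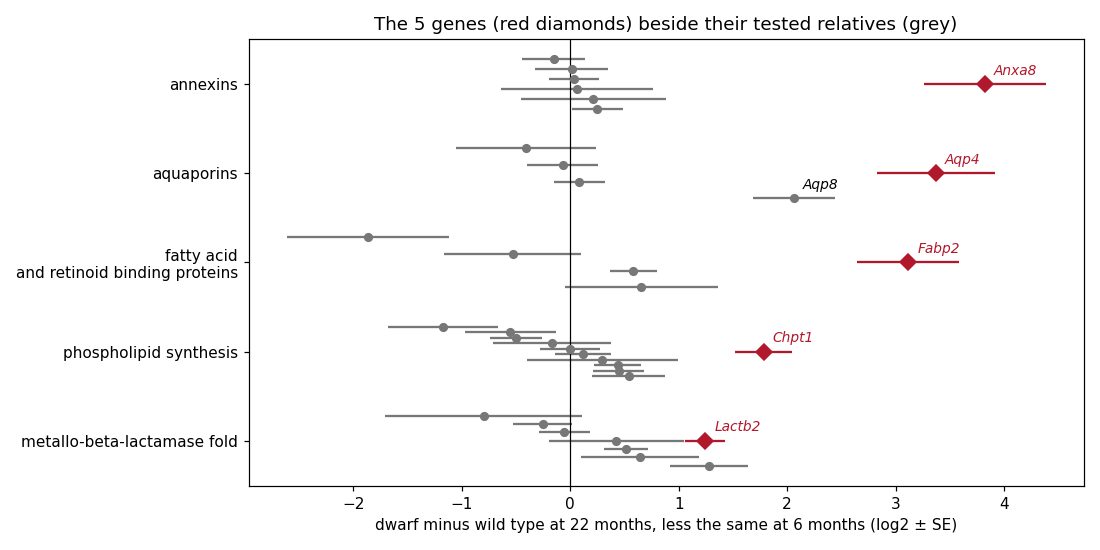
Dwarf minus wild type at 22 months less the same at 6 months (log2 ± SE) for the 5 genes (red diamonds) and their tested relatives (grey points) in 5 lists. Aqp8, at 2.06, is the single relative that passed, and the medians of the lists run from 0.01 for the aquaporins to 0.43 for the metallo-beta-lactamase fold.

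Markers of cells other than hepatocytes were summed beside the 5 genes. Fabp2 is known from enterocytes, and 7 of 10 markers of intestinal epithelium were on the array, with Vil1 and Cdx1 at or below the floor on at least 12 of the 14 arrays. Their summed signal was 823 to 1214 in dwarf and 830.3 to 1132.1 in wild type mice of 22 months, and 1144 to 1339.2 in dwarf and 643.6 to 1063.4 in wild type mice of 6 months. These sums are dim, and the ranges of young and old dwarf livers overlapped. The sum was higher in young dwarf than in young wild type livers without overlap, where Fabp2 was lower. Young dwarf arrays also had higher low signals over all probe sets, with a mean 25th percentile of 65.3 against 52.6 in young wild type mice. By group mean, every marker sum but those of macrophages and pancreas was higher in young dwarf than in young wild type livers. The part of the intestinal markers in the Fabp2 values was not tested. For Aqp4, the sum of 7 of 7 skeletal muscle markers was 795.7 to 1003 in dwarf and 763 to 1059.5 in wild type mice of 22 months, with Acta1 and Tnni2 at the floor. In young mice it was 803.5 to 1845.8 in dwarf and 902.3 to 1207.5 in wild type mice. The sum of 6 of 7 stomach markers was 1330.7 to 1650.7 in dwarf and 1354.3 to 1796.3 in wild type mice of 22 months, with Atp4b and Muc5ac at the floor, and 1403.5 to 2263.2 in dwarf and 1430 to 1886.6 in wild type mice of 6 months. For Anxa8, an epithelial gene, the sum of 5 of 9 bile duct markers was 271.3 to 433.2 in dwarf and 273.4 to 350.1 in wild type mice of 22 months, with Krt7, Krt19 and Epcam at the floor. In young mice it was 423.6 to 719.1 in dwarf and 317.7 to 523 in wild type mice. The ranges of the old groups overlapped for the intestinal, muscle, stomach and bile duct lists.

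Of the remaining marker sums, those of macrophages, endothelium and pancreas did not overlap between old dwarf and old wild type livers. The sum of 6 of 6 macrophage markers was 1712.5 to 2377.5 in dwarf and 2567.3 to 4499.6 in wild type mice of 22 months, with Marco at the floor, and 2278.3 to 2688.6 in dwarf and 2055.5 to 3658.9 in wild type mice of 6 months. The sum of 5 of 6 markers of liver endothelium was 2856.9 to 3355.9 in dwarf and 3433.9 to 3650 in wild type mice of 22 months, and 3620 to 4568.4 in dwarf and 2929.9 to 3681.4 in wild type mice of 6 months. The sum of 6 of 9 markers of pancreatic acinar cells was 1759.1 to 2806 in dwarf and 3222.5 to 3509.2 in wild type mice of 22 months, and 1732.7 to 2537.9 in dwarf and 2799.9 to 3833.3 in wild type mice of 6 months. The sum of 6 of 7 stellate cell markers was 596.6 to 746.7 in dwarf and 573.8 to 675.8 in wild type mice of 22 months, with Acta2 at the floor, and 673.6 to 1193.9 in dwarf and 613.3 to 779.6 in wild type mice of 6 months. The sum of 4 of 6 B cell markers was 1175.2 to 1311.8 in dwarf and 1100.1 to 1433.5 in wild type mice of 22 months, and 1454.2 to 1676.2 in dwarf and 897.7 to 1614.2 in wild type mice of 6 months. The macrophage, endothelial and pancreatic sums were lower in the old dwarf livers, where Anxa8, Aqp4 and Chpt1 were higher. The pancreatic sum was also lower in young dwarf than in young wild type livers without overlap, where these genes had lower means. The part of these sums in the results was not tested.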

How the data were processed

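The authors deposited 1 linear signal intensity per probe set and array, and the submitters' processing notes name MAS5. Detection calls were not analysed here. The mean after trimming 2% at each end was near 500.4 on each array, and values were used as deposited, with median scaling as an alternative. Values below the pooled 25th percentile (54.9) were set to it, and probe sets above the pooled median (184.8) on at least 3 arrays were tested, without 66 control sets. Log2 values of all 14 arrays were fitted with limma 3.58.1 (R 4.3.3, 1 mean per group, eBayes with an intensity trend) and p values adjusted by Benjamini-Hochberg over the 7227 probe sets of a contrast. Animals have separate numbers; whether litters were shared is not given. The pipeline was tested on simulated data.

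Gene names come from the array annotation (10855 probe sets with 1 symbol, 396 with several, 1237 with none), of which 10839 matched RefSeq of GRCm38.p6, which also gave the promoters. The probe set of the highest mean stands for a gene. Members, gene lists, tests and alternatives were chosen with earlier results of these data known. Named genes were the members, list genes that passed with up to 2 others of the smallest p, and the 3 most correlated genes of each member. A few others (Aqp1, Aqp2, Aqp9, Pcyt1a, Pemt and single arrays) were picked after their values were seen.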

Additional observations from a re-analysis of the deposited data

Results flagged for a closer look

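Chance alone sets 1 array apart in about 1 of 20 groups, and 14 groups of 4 arrays were screened. In the young dwarf mice, animal 85 stood apart for Anxa8, at 158.5 against 34.1 to 53.9 (gap over range 0.841). In the young wild type mice, animal 88 stood apart for the dimmer Lactb2 probe set, at 803.4 against 166.1 to 250.4 (gap over range 0.868), and without it the growth of the genotype difference was 1.45 in place of 1.93.

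For 4 of the 5 genes every dwarf array was higher and every wild type array lower at 22 than at 6 months, with a growth of the genotype difference of 3.82 for Anxa8, 3.11 for Fabp2, 1.78 for Chpt1 and 1.24 for Lactb2. This difference was not tested, since it chose the genes. The tested relative Aqp8 had a growth of 2.06 (limma adjusted p = 0.0126), and its old groups overlapped.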

How the results depend on the processing

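For age averaged over genotypes, 1349 probe sets passed as reported, 11 with the 18S covariate, 94 with the 3' to 5' covariate and 909 to 1713 without 1 array. At 22 months 212 passed, 442 with array weights and 127 to 241 without 1 array (127 without dwarf animal 3). For the growth 158 passed, 69 without a filter, 64 without an intensity trend, 57 with the 3' to 5' covariate and 48 to 169 without 1 array (48 without dwarf animal 3, 57 without wild type animal 24). Median scaling changed the split of higher and lower calls from 644 and 705 to 912 and 408 for age averaged over genotypes, from 460 and 502 to 188 and 847 at 6 months and from 111 and 47 to 159 and 19 for the growth. The call of the Anxa8 age average, which is not read as a result, was lost with the filter at the 75th percentile (1.07). It was also lost with the 18S covariate (1.22), with the 3' to 5' covariate (1.00) and without dwarf animal 3 (1.03). The Anxa8 age average was 1.01 to 1.26 without 1 array. That of Aqp4 was -0.83 with array weights and -0.84 to -0.47 without 1 array, and that of Fabp2 0.45 to 0.84. With the 18S covariate the average turned to -0.061 for Chpt1, 0.13 for the dimmer Aqp4 and -0.25 for the dimmer Lactb2 probe set. The growth moved to 2.82 for Aqp4 with a pseudocount of 32 and no floor, to 1.44 for Lactb2 with median scaling, and to 2.64 to 3.42 for Fabp2 without 1 array. The causes were not tested. The brighter Aqp4 probe set did not pass the filter at the 75th percentile. Every old array had a higher 18S signal than every young array but that of animal 88, so age and this signal overlap little. No paired analysis was possible because no animal number occurs in more than 1 group. Arrays of 3 or 4 mice a group limit the precision, and signals near 54.9 have no order.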
